A study of Mus musculus with 4 samples.

Results

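Described here are 10 genes of meningeal fibroblasts and of the collagen matrix they lay down, followed on 4 mouse arrays: Col1a1, Col1a2, Col3a1, Dcn, Lum, Fmod, Ogn, Igf2, Foxc1 and Foxc2. They are covered by 23 of the 45101 probe sets of the array, every probe set to which the platform annotation gives only the symbol of one of these genes. Each probe set summarises many short DNA probes for a transcript in a single value. The genes were chosen in part because they were already known to read higher on cDNA than on aRNA in these arrays, and because Fmod was known to read lower on arrays numbered 1. Their values in these comparisons are therefore given as a description, without a test.

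The source of every sample was total RNA, by its label from brain, hindbrain and spinal cord of the mouse. For 2 arrays it was amplified into cDNA by means of a Nugen kit; for 2 others a T7-based protocol gave amplified antisense RNA, or aRNA. Each preparation has an array numbered 0 and an array numbered 1. Strain, genotype, sex, age, treatment, the meaning of the numbers, the number of animals, and whether the preparations shared RNA are not given in the sources used here. Neuron, astrocyte and oligodendrocyte markers were above background on all 4 arrays for 7 of 7, 6 of 6 and 5 of 5 genes with a probe set. The array for aRNA number 0 stood apart in sex-linked transcripts: Xist probe set 1436936_s_at read 8.55 there and 11.94 to 15.44 on the other 3 arrays, and Eif2s3y, on the Y chromosome, read 13.12 there and 4.75 to 7.92 on the others. These values do not match 1 RNA shared by all 4 arrays. All values are log2(intensity + 16) unless said otherwise, and differences are differences of such values. Background is the 95th percentile of the control probe sets for Bacillus transcripts on each array, an intensity of 123 to 126 for aRNA and of 212 to 248.7 for cDNA.

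The meninges are the membranes around brain and spinal cord, and their fibroblasts secrete the fibrillar collagens that give them strength. Collagen I is built from the chains encoded by Col1a1 and Col1a2, and collagen III from that of Col3a1. Decorin (Dcn), lumican (Lum), fibromodulin (Fmod) and osteoglycin (Ogn) are small leucine-rich proteoglycans, secreted proteins of the same matrix; the first 3 bind collagen fibrils and influence their assembly. Igf2 encodes insulin-like growth factor 2, which in the brain is made mainly by meninges and choroid plexus. Foxc1 and Foxc2 are forkhead transcription factors of mesenchyme that are needed for the development of the meninges and blood vessels.

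The RefSeq promoter table (GRCm38.p6, 250 bases before to 50 after a start) matched 6 of the 10 genes, with 9 starts, 4 of them for Igf2. The CCAAT box, the site of the factor NF-Y and long studied in collagen I promoters, was searched for as the letters CCAAT on both strands. It was found in 4 of the 9 windows, among them those of Col1a2 (chr6:4505368-4505667, plus strand), Fmod (chr1:134037004-134037303, plus strand) and Foxc1 (chr13:31806396-31806695, plus strand). These 3 are shown because each belongs to a gene with a single start in the table that read higher on both cDNA arrays; the box, or its complement, is in capitals. Among all 32851 promoter windows, 37.4% held it, so its presence describes these windows and says nothing of the factor.
Col1a2: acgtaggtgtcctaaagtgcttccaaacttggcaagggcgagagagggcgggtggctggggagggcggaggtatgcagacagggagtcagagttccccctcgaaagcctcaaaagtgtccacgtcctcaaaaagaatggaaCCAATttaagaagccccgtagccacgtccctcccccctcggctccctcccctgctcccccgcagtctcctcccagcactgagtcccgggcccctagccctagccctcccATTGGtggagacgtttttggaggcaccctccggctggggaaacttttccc
Fmod: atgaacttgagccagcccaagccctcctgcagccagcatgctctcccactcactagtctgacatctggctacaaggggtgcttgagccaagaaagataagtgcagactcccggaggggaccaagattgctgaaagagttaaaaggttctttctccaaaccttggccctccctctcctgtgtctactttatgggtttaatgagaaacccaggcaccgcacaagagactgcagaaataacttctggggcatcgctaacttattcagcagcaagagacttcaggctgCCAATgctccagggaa
Foxc1: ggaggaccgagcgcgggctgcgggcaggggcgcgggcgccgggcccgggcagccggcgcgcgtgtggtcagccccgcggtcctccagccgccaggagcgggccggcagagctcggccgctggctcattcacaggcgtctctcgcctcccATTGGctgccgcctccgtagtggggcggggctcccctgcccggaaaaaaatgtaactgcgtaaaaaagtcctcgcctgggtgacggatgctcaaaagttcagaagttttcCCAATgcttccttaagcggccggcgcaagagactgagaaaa

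Between the preparations, 9 of the 10 genes had each cDNA array above each aRNA array at their brightest probe set, and Dcn had each below. Of all genes tested, 35.7% lay above and 39% below in this way. The median difference over the 10 genes was 3.72, with a range from −2.23 for Dcn to 6.08 for Fmod, against a median of −0.11 over all 22519 probe sets tested. Over all 23 probe sets, 20 had both cDNA arrays above both aRNA arrays, 1 had both below and 2 overlapped; among all probe sets of the array other than controls, 31% lay above and 30.6% below. Of the 18 of the 23 that passed the filter on dim probe sets, 15 were called higher on cDNA and 1 lower (limma adjusted p under 0.05), where 20.2% of all probe sets tested were called higher and 22.9% lower. As the genes were picked from this contrast, nothing is read from these counts. The amplification method differs along with the preparation, so its effect cannot be told apart from a difference in the RNA used. In whole-tissue RNA, fewer cells of a type and less RNA per cell cannot be told apart either.

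**Figure D1:**
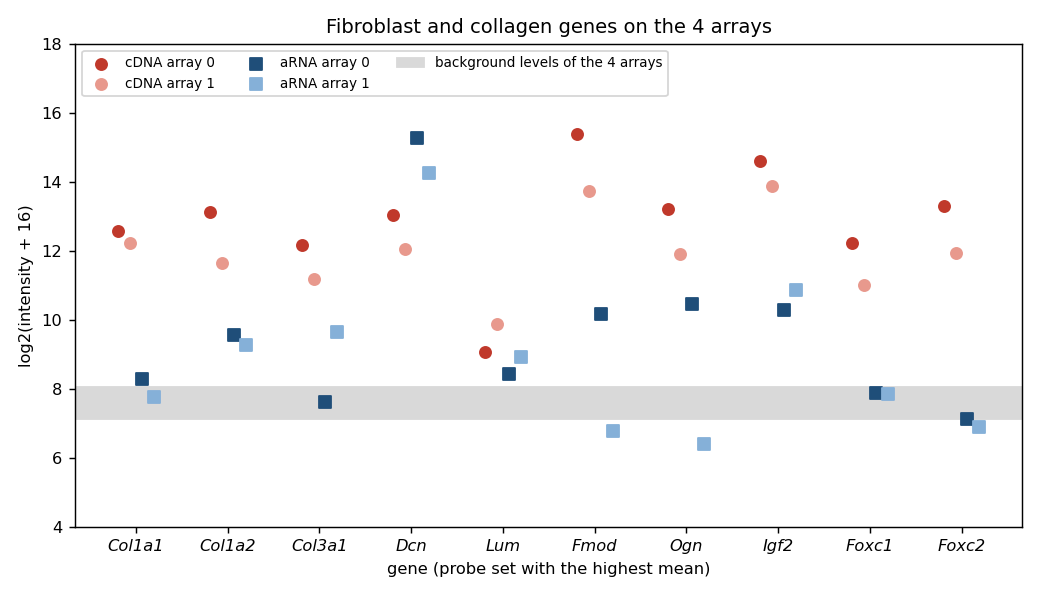
Values of the 10 genes at the probe set with the highest mean, as log2(intensity + 16), on each of the 4 arrays (circles cDNA, squares aRNA; darker shade number 0); the grey band spans the background levels of the 4 arrays. Circles lie above squares for 9 genes and below them for Dcn, and Fmod, Ogn and Foxc2 fall under the band on aRNA array 1, with Foxc2 at its lower edge on aRNA array 0.

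The collagen I and III chains read higher on cDNA than on aRNA at their brightest probe sets, which were above background on all 4 arrays. Col1a1 at probe set 1455494_at read 12.58 and 12.23 on cDNA and 8.30 and 7.77 on aRNA, array 0 first as in each such pair that follows. The preparations did not overlap, and the means of 12.41 ± 0.25 and 8.03 ± 0.38 (SD, n = 2) differed by 4.37. Its other probe set, 1423669_at, was under background on both aRNA arrays; the cDNA level was at least 9.75 times theirs, a bound in which each aRNA array counts at its background level.

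Col1a2, the partner chain of collagen I, read 13.14 and 11.64 on cDNA against 9.57 and 9.28 on aRNA at 1450857_a_at, a difference of 2.96. At 1423110_at it was under background on both aRNA arrays, and the cDNA level was at least 20.1-fold above them. At the dimmest probe set, 1446326_at, the preparations overlapped: it read 8.20 and 7.52 on cDNA and 7.67 and 4.15 on aRNA, under background on cDNA array 1 and aRNA array 1. Thus the separation of Col1a2 held at 2 of its 3 probe sets.

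Col3a1, the chain of collagen III, at 1427883_a_at read 12.17 and 11.18 on cDNA, and 7.63 and 9.64 on aRNA, so that the aRNA arrays lay 2.02 apart and the cDNA arrays 0.98. Both cDNA arrays were still above both aRNA arrays (difference 3.04). Its dim probe set 1427884_at overlapped between the preparations, with a difference of 0.88.

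The 4 proteoglycans did not move as a block. At their brightest probe sets, Fmod had the widest separation: at 1456084_x_at it read 15.38 and 13.73 on cDNA against 10.18 and 6.77 on aRNA, at least 59.3-fold higher on cDNA, since aRNA array 1 lay under background. Without _x_at or _s_at probe sets it was not the widest, with a difference of 3.34 against 4.13 for Ogn. All 6 of its probe sets had both cDNA arrays above both aRNA arrays, by 3.34 to 6.08 (median 4.25). The smallest of these was 1415939_at, the only Fmod probe set whose name does not end in _x_at, a suffix for oligonucleotides that may also bind other transcripts; it gave 12.34 and 10.38 on cDNA and 8.32 and 7.71 on aRNA, all above background.

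Ogn read 13.23 and 11.90 on cDNA and 10.45 and 6.41 on aRNA at 1419663_at. The aRNA arrays were 4.04 apart, the widest gap between arrays of the same preparation among the brightest probe sets of the 10 genes, with aRNA array 1 under background, and the gene was at least 13.6-fold higher on cDNA. At 1419662_at, above background throughout, the means of 9.43 ± 0.81 on cDNA and 8.01 ± 0.85 on aRNA (SD, n = 2) differed by 1.42. That second probe set was not called in limma, and the call of the first was lost without cDNA array 0 and with no intensity trend. As the genes were picked from this contrast, these calls are a description and not a test of Ogn.

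Dcn was the exception in direction. At 1449368_at it read 13.03 and 12.05 on cDNA and 15.28 and 14.26 on aRNA, a difference of −2.23, with all 4 values far above background. Its second probe set, 1441506_at, went the other way (8.45 and 8.27 against 5.71 and 7.66, with aRNA array 0 under background), so decorin was the only gene, of the 8 with several probe sets, at which they differed in sign. Averaged over both probe sets the difference was −0.28.

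Lum, with a single probe set, read 9.06 and 9.87 on cDNA and 8.44 and 8.93 on aRNA. The groups did not overlap, but the gap between the cDNA arrays (0.81) was as large as the difference between the preparations (0.78). Lum and Dcn lie next to each other among the genes in RefSeq, and Lum had the smallest difference and Dcn the only negative one.

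The growth factor gene Igf2 read 14.61 and 13.88 on cDNA and 10.30 and 10.85 on aRNA at 1448152_at, a difference of 3.67. Its means of 14.24 ± 0.52 and 10.57 ± 0.39 (SD, n = 2) make it a gene whose arrays of like preparation lay close together. The dim probe set 1415931_at had the same order but lay under background on 3 of the 4 arrays, with a bound of at least 2.09-fold.

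Of the transcription factor genes, Foxc2 read 13.31 and 11.95 on cDNA against 7.12 and 6.90 on aRNA. It was at least 45.2-fold higher on cDNA; aRNA array 0 lay at the background level there (an intensity of 123.05 against 123.07). Foxc1 read 12.23 and 11.03 on cDNA and 7.87 and 7.86 on aRNA at 1419485_at, a difference of 3.76, and its other probe set, 1419486_at, was at least 4.81-fold higher on cDNA. The latter had the lowest mean of the probe sets that passed the filter (8.46 against a limit of 8.38), and the highest of the 5 that did not pass was 1423669_at of Col1a1 (7.82).

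**Figure D2:**
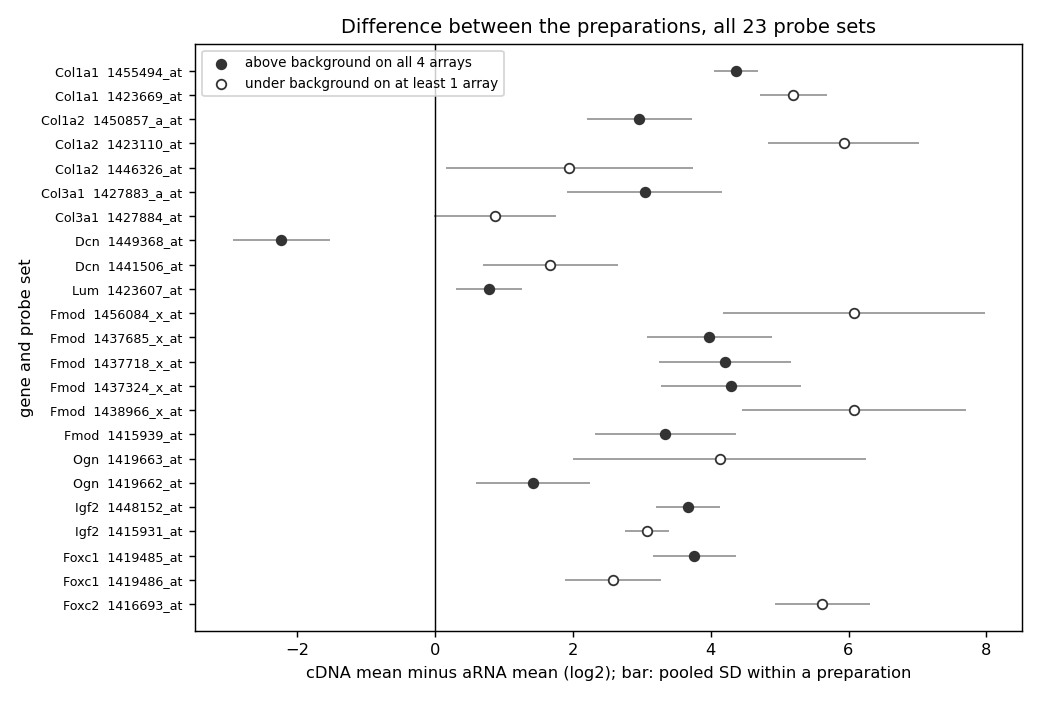
Difference between the cDNA and aRNA means (log2) for all 23 probe sets, with the pooled SD within a preparation as the bar (2 arrays each); open circles mark probe sets under background on at least 1 array, whose size is therefore not firm. Only 1449368_at of Dcn lies left of 0, and the 6 Fmod probe sets lie between 3.34 and 6.08.

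Genes outside the 10 were read from lists of related genes, 1 probe set per gene (the one with the highest mean), with limma's test over all probe sets. The lists were chosen with earlier results of these data known. Of 20 tested genes in a list of other meningeal and fibroblast genes, 16 were called higher on cDNA, none lower and 4 neither, with a median difference of 2.46; over all 11945 genes tested, 21.9% were called higher and 22.9% lower, with a median of −0.06. The list holds 29 genes with a probe set, and 9 of them were too dim to be tested. Of these 9, Mfap4 (3.92), Dpp4 (3.43), Mfap5 (2.30), Pi16 (2.09) and Twist2 (1.40) had the higher mean on cDNA. Fbln2 (−1.03), Dpt (−0.99), Mfap2 (−0.92) and Postn (−0.14) had the lower mean there. Each of the 9 was under background on at least 1 array, and the count of none lower holds for tested genes only. Some genes of the list are also expressed by other brain cells, Pdgfra by oligodendrocyte precursors, Ptgds by oligodendrocytes and Aldh1a1 by astrocytes. Crabp2, a retinoic acid binding protein, read 11.50 and 10.76 on cDNA and was under background on both aRNA arrays (limma adjusted p = 0.000165). Its mean of 8.48 passed the filter (8.38) only through the cDNA arrays. The same held for Slc22a6, Slc47a1, Twist1, Lama1, Islr and Slc13a4, also called higher, with aRNA means from 6.50 to 8.16. The calls of these genes are a description and give no support. Gjb2, the gap junction protein connexin 26 of meningeal cells, read 14.18 and 13.24 on cDNA against 8.73 and 8.56 on aRNA, a difference of 5.07 ± 0.38 (SE; limma adjusted p = 4.5e-05). Islr was at least 27.5-fold higher (limma adjusted p = 0.000246). The 4 not called were Aldh1a1 (0.14), Fn1 (0.62), Tbx18 (1.33) and Fbln5 (1.93). With each array left out in turn, 13 to 18 of the 20 were called higher; the lowest number came with either array numbered 0 left out.

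Of 21 other collagen chains tested, 8 were called higher on cDNA, none lower and 13 neither (median 1.31). Over all genes tested 21.9% were called higher and 22.9% lower. Without cDNA array 0, 4 of the 21 were higher, near the 17% of all probe sets tested that were higher in that setting. The chains called higher were led by Col25a1, a transmembrane collagen of neurons (3.83, limma adjusted p = 0.000718), Col6a1, a chain of the microfibrillar collagen VI (3.14, limma adjusted p = 0.000925), and Col22a1 (2.46, limma adjusted p = 0.00739). The second Col25a1 probe set, too dim to be tested, gave −0.85, and the other 2 of Col22a1 gave −0.12 and 1.85. Basement membrane chains stood on either side of the threshold, with Col4a2 called higher (1.36) and Col4a1 not (−0.04). Among the other small leucine-rich proteoglycans only 3 of 11 could be tested: Bgn (biglycan) was higher by 2.35 (limma adjusted p = 0.00673) at the probe set kept and by 3.70 and 4.03 at the other 2, all 3 called, Prelp was not called (1.47), and Podn (podocan), under background on cDNA array 1, was at least 2.78-fold lower. With a cDNA mean of 7.37, Podn passed the filter only through the aRNA arrays. The Podn call (limma adjusted p = 0.0372) was lost without cDNA array 1 (0.113), aRNA array 0 (0.195) or aRNA array 1 (0.0552), with no filter (0.0854) and with no intensity trend (0.0668).

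Of 21 tested enzymes, chaperones and other proteins that fold, trim and crosslink collagen, 3 were higher on cDNA, 5 lower and 13 neither, with a median that rounds to 0. Over all genes tested 21.9% were higher and 22.9% lower, and nothing about the list is read from these counts. Pcolce, which speeds the removal of the C-propeptide from procollagen, was higher by 5.12 ± 0.40 (SE; limma adjusted p = 4.86e-05), while its relative Pcolce2 was lower, by −3.00 ± 0.40 (SE; limma adjusted p = 0.000524). P3h1, a prolyl 3-hydroxylase, was higher by 2.39 (not called without cDNA array 0) and Sparc, a collagen-binding matrix protein, by 1.95 (limma adjusted p = 0.000229), but the other 2 Sparc probe sets gave 0.01 and −0.67. P4ha2, a prolyl 4-hydroxylase subunit, was lower (−1.78), as was the lysyl hydroxylase gene Plod3 (−1.48, not called without either aRNA array). With arrays left out in turn, 3 to 6 were higher (6 without cDNA array 1) and 3 to 5 lower (3 without either aRNA array).

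In the insulin-like growth factor axis, 4 of 12 tested genes were higher on cDNA and 1 was lower (median 0.30). Over all genes tested 21.9% were called higher and 22.9% lower. The binding protein genes Igfbp5 (2.47) and Igfbp7 (2.43) led those higher. The second Igfbp5 probe set was not called (0.18). Igf2r, the receptor that clears Igf2, was higher by 1.25 at the probe set kept and called lower at its other probe set (−3.53), so it has no settled direction. The receptor gene Igf1r was lower (−1.34, limma adjusted p = 0.0365) and was not called without cDNA array 1, aRNA array 0 or aRNA array 1. Without aRNA array 0, 2 of the 12 were higher and none lower; none was lower without cDNA array 1 or aRNA array 1 either, and 2 were without cDNA array 0. Of 18 genes of the transforming growth factor beta pathway, a main inducer of collagen genes, 8 were higher and 3 lower (median 0.26). These counts stand beside the same shares of all genes tested, 21.9% higher and 22.9% lower. Ltbp1, which stores the latent factor in the matrix, was at least 31.3-fold higher at the probe set kept and differed by 0.47 and 0.80 at 2 others that were not tested. Smad7, an inhibitor, was higher by 2.72 (its other tested probe set −0.58), and Ccn2, a target gene, by 2.45. Smad4 (−1.55), Tgfb3 (−1.29) and Smad2 (−1.10) were lower, although 1 of the 3 Smad4 probe sets was not called (0.09); Tgfb3 and Smad2 were not called without cDNA array 1 or aRNA array 0, nor Smad2 without aRNA array 1. Without aRNA array 0, 1 of the 18 was lower, and without cDNA array 1 or aRNA array 1 it was 2.

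**Figure D3:**
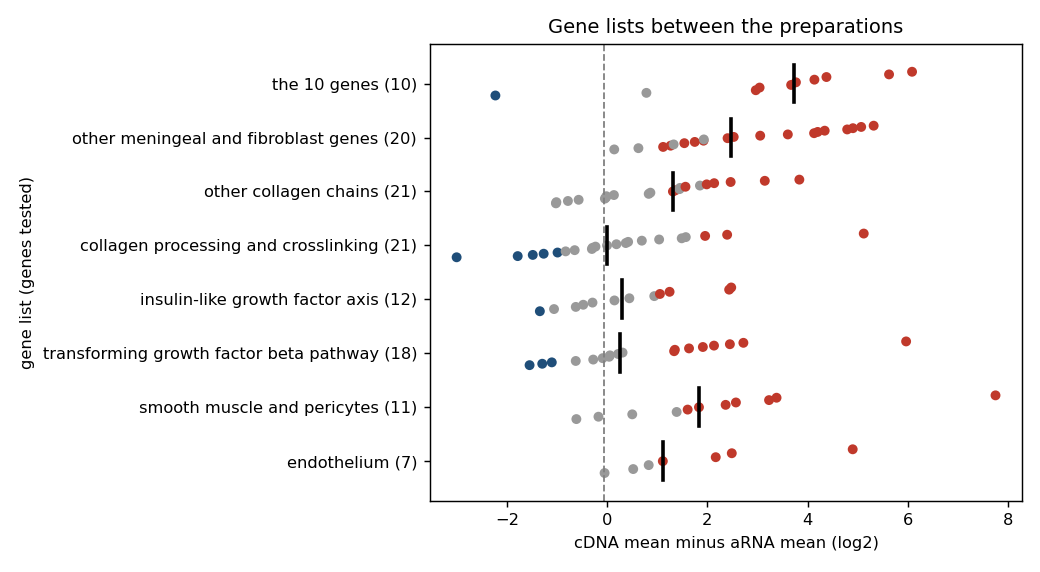
Difference between the cDNA and aRNA means (log2) of each tested gene in 8 lists, red for genes called higher in limma, blue for lower and grey for neither; the black bar is the list's median and the dashed line the median of all genes tested. The 10 genes and the other meningeal and fibroblast genes lie mostly right of the line, and the collagen processing genes lie on either side.

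Markers of other cell types were read in the same way, and their counts stand beside the 21.9% of all genes tested that were called higher and the 22.9% called lower. Of 11 tested smooth muscle and pericyte markers, 7 were called higher on cDNA and none lower (median 1.83), and the summed intensity of the 14 with a probe set ran from 54676 to 118608 on cDNA and from 21657 to 22313 on aRNA. Endothelial markers were higher for 4 of 7 and lower for none, with sums of 14581 to 29599 and 7680.47 to 7780.34 over 11 genes. Choroid plexus markers were higher for 3 of 4 (2 of 4 without cDNA array 1 or aRNA array 1), with sums of 104929 to 181630 and 2232 to 2646 over 10 genes. Of these 10, 6 were too dim to be tested, and a sum depends most on its brightest genes. The median difference of the 4 tested was 3.85, and the 1 that passed the filter at the 75th percentile differed by 8.25. The bone and cartilage list had 3 of 3 tested genes higher (1 without cDNA array 0 and 1 without aRNA array 0), with sums of 52132 to 54145 and 12931 to 13581 over 9 genes, of which Mepe was under background on all 4 arrays. The Schwann cell list had 2 of 4 higher (3 without aRNA array 0; sums of 87910 to 92886 and 67633 to 71024 over 5 genes). Skeletal muscle markers were at or near background: 1 of 9 could be tested, Myh1, Tnnt3, Tnnc2 and Myog were under background on all 4 arrays, and sums ran from 960.3 to 1453.5 over the 4 arrays. Of the 4 red cell genes with a probe set none could be tested and Alas2 was under background throughout, with sums of 292 to 1075. The part of these cell types in the difference of the 10 genes was not tested. For all these markers, a difference in cells cannot be told apart from the amplification method. Neuronal markers gave 1 higher and 1 lower of 7 and oligodendrocytic 1 and 1 of 5 (1 and 2 without cDNA array 1). Astrocytic markers gave 2 and 1 of 6, with 0 to 2 lower as arrays were left out and 3 higher without aRNA array 1. Microglial markers gave 0 and 1 of 6, but 3 and 0 without aRNA array 1, 0 and 0 without cDNA array 1, and 0 and 2 without aRNA array 0.

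Arrays numbered 1 were then set against those numbered 0. On cDNA, 9 of the 10 genes read lower on array 1 than on array 0 at their brightest probe set, with Lum the exception, and 22 of the 23 probe sets did so, where 53.2% of all genes tested and 49.5% of all probe sets were lower. The median over the 10 genes was −1.10, from −1.65 for Fmod to 0.81 for Lum, against −0.04 over all genes tested. Array 1 was at least 2-fold lower for 5 of the 10 genes (Col1a2, Fmod, Ogn, Foxc1 and Foxc2), against 6.71% of all genes tested. Between the aRNA arrays 7 of the 10 were lower on array 1, with a median of −0.25 (0.02 over all genes, of which 48.6% were lower). There 3 were at least 2-fold lower (Dcn, Fmod and Ogn) against 2.84% of all genes, and Col3a1 was at least 2-fold higher, as were 4.5% of all genes. In all, 7 of the 10 were lower on number 1 in both preparations, against 26.6% of all genes. Each preparation has a single array per number, so these are differences between arrays and not tests. The aRNA arrays also differed in sex-linked transcripts (Eif2s3y 13.12 on array 0 and 6.79 on array 1), from which their number cannot be told apart. Fmod was part of the reason for the choice of the genes, and its difference is a description.

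Fmod read lower on number 1 at all 6 probe sets in both preparations. Array 1 minus array 0 ran from −2.70 to −1.45 on cDNA (median −1.69) and from −3.42 to −0.60 on aRNA (median −1.12). At 1456084_x_at aRNA array 1 was under background, so it was at least 8.20-fold lower there than aRNA array 0, against 3.14-fold on cDNA. The probe set without the _x_at suffix differed by −1.96 on cDNA and −0.60 on aRNA.

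Ogn, which lies in another cluster of proteoglycan genes, differed by −1.32 on cDNA and was at least 9.89-fold lower on aRNA array 1 at 1419663_at; at 1419662_at the differences were −1.15 and −1.20. Dcn differed by nearly equal amounts, −0.98 and −1.01, at its bright probe set, and Col1a1 by −0.35 and −0.53. Col1a2, Foxc1 and Foxc2 were 2.82-fold, 2.31-fold and 2.57-fold lower on cDNA array 1 but moved by −0.29, −0.01 and −0.22 on aRNA, where Foxc2 was at or under background. Lum was the only gene of the 10 to read higher on number 1 in both preparations (0.81 and 0.50).

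Col3a1 and Igf2 went opposite ways. Col3a1 changed by −0.98 from cDNA array 0 to cDNA array 1 and by 2.02 from aRNA array 0 to aRNA array 1, and Igf2 by −0.73 and 0.56. The collagen V chain gene Col5a2, a neighbour of Col3a1 on the chromosome, differed by −0.60 on cDNA and was at least 3.85-fold higher on aRNA array 1 than on aRNA array 0, which was under background. In the additive limma fit with preparation and number, none of the 18 tested probe sets was called in either direction. Of all probe sets tested, 0.0533% were called higher and 0.00888% lower. At a limma unadjusted p under 0.05 were 9 of the 18, among them all 6 Fmod probe sets, and 1319 of all 22519 probe sets tested. Fmod was part of the reason for the choice of the genes, so nothing is read from that count. The fit has 1 residual degree of freedom.

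**Figure D4:**
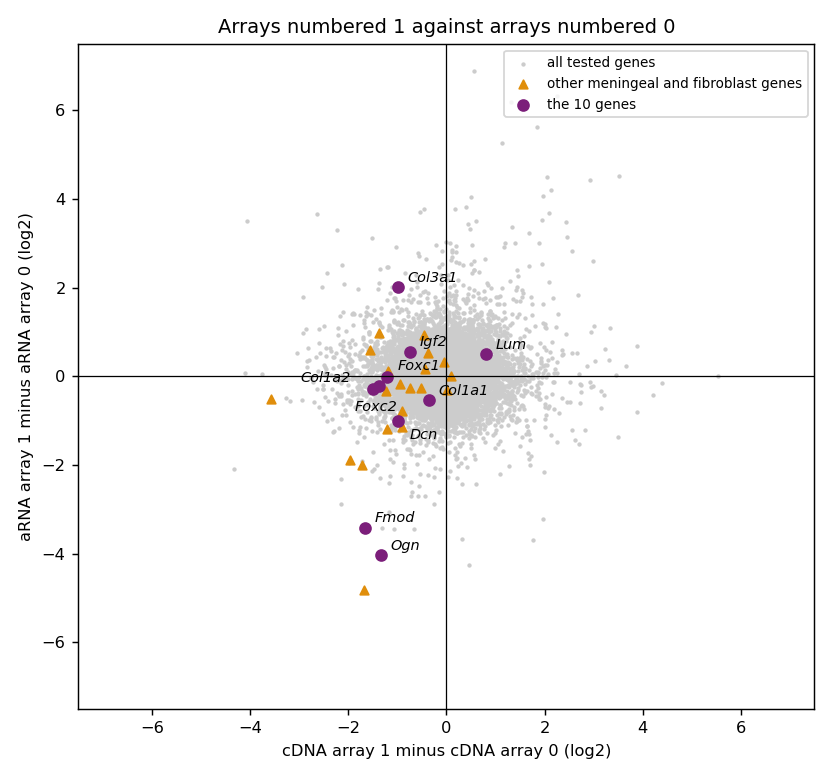
Difference between arrays 1 and 0 on cDNA (horizontal) and on aRNA (vertical), in log2, for all tested genes (grey), the 20 tested other meningeal and fibroblast genes (triangles) and the 10 genes (circles, named). Among the 10, Fmod and Ogn lie lowest, Lum alone lies above 0 on both axes, and Col3a1 and Igf2 lie in the upper left.

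The number differences of the other lists are given beside the shares over all genes tested, of which 53.2% were lower on cDNA array 1 and 48.6% on aRNA array 1, 6.71% and 2.84% at least 2-fold, and 26.6% in both. Of the 20 tested other meningeal and fibroblast genes, 18 were lower on cDNA array 1 than on cDNA array 0, 9 of them at least 2-fold, and 12 were lower on aRNA array 1, 5 at least 2-fold; 11 were lower in both. The aRNA count of lower genes is near the share over all genes. Mgp, an inhibitor of calcification, read 15.52 and 13.81 on cDNA and 10.88 and 8.88 on aRNA. Smooth muscle and pericyte markers were lower on cDNA array 1 for 9 of 11 genes and on aRNA array 1 for 5 of 11, and other collagen chains for 19 and 7 of 21. Choroid plexus markers were lower for 0 of 4 on cDNA and 3 of 4 on aRNA, and microglial markers for 1 of 6 on each. Summed microglial intensity was 22605 and 37268 on cDNA and 8681 and 56298 on aRNA, and Tyrobp, of that list, was called higher on number 1 in limma (adjusted p = 0.022; 0.0837% of all genes tested were called higher and 0% lower). With no intensity trend no probe set was called between the numbers, so that call was lost. The part of microglia in the values of the 10 genes was not tested. None of the 95 tested genes of the 6 related lists was called between the numbers in limma (16 at an unadjusted p under 0.05, beside 1319 of all 22519 probe sets tested).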

How the data were processed

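Transcript levels were measured on 4 Affymetrix mouse arrays, 2 per preparation. The authors deposited intensity values, linear and summarised per probe set; no source used here names the summarising software. Their 2% trimmed mean was 2500.02 on each array, so they were kept as scaled. Whether the arrays hold separate animals is not given, but the sex-linked transcripts do not match 1 RNA shared by all 4 arrays. The p-values measure only the spread between these arrays, which may in part be technical, and the number of arrays limits precision. On aRNA that spread also holds the difference in sex-linked transcripts between array 0 and array 1. The contrast of the preparations holds it too, as Xist probe set 1436936_s_at read 11.94 and 12.51 on cDNA.

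From these values log2(intensity + 16) was computed. The 64 control probe sets were left out, and of 45037 others the 22519 with a mean at or above the median (8.38) were tested with limma 3.58.1 in R 4.3.3 (lmFit, eBayes with intensity trend, Benjamini-Hochberg, threshold 0.05): preparation alone (2 residual degrees of freedom), or preparation and number. The code of the fit was checked on simulated arrays with independent noise, which says nothing of calls where arrays are not independent. An exact permutation test, two-sided, of such groups cannot give a p under 0.333, so limma alone was used. Each gene is represented by its probe set with the highest mean.

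Platform symbols (1 for 34945 probe sets, several for 932, none for 9160) were updated by gene ID in a RefSeq table (GRCm38.p6), where 34741 matched (99.4%). Named genes were all 10, and from each list, among genes called, the 3 most changed each way, with others named for a contrast after their values were seen. Pattern neighbours were ranked by Euclidean distance. The genes and lists were chosen with earlier results of these data known. Figures were drawn with matplotlib 3.10.9.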

Additional observations from a re-analysis of the deposited data

Results flagged for a closer look

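At the brightest probe set, 2 of the 10 genes moved in opposite directions between the numbered arrays of the 2 preparations. Col3a1 differed by −0.98 between cDNA arrays 1 and 0 and by 2.02 between aRNA arrays 1 and 0. Igf2 differed by −0.73 between the cDNA arrays and by 0.56 between the aRNA arrays. With 1 array per number in each preparation, the difference between the preparations was not tested.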

How the results depend on the processing

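The median difference of the 10 genes between the preparations ran from 3.23 to 4.20 over the 12 alternatives, and 9 genes were higher and Dcn lower in each. Both ends of that range came from leaving out a cDNA array. With arrays left out in turn that median ran from 3.23 to 4.20, calls over all probe sets (9722) from 7148 to 8538, calls higher among the 10 genes from 7 to 8, among other meningeal and fibroblast genes from 13 to 18 and among other collagen chains from 4 to 8. With the filter at the 75th percentile, 6454 probe sets were called, and 3 of 4 tested of the 10 genes, 6 of 8 meningeal and fibroblast genes and 1 of 2 collagen chains were higher, fewer genes being tested. Fmod differed by −1.28 between the numbers without _x_at or _s_at probe sets, against −2.53 at the probe set kept, and ran from −2.63 to −1.28 over its 7 alternatives. Leaving out an array leaves the fit of the numbers no residual degree of freedom, so it was not run there. Calls between the numbers (14) became 9 with a pseudocount of 64, 28 with no filter, 8 with median centring, 62 with quantile normalization and 0 with no intensity trend (1101 at an unadjusted p under 0.05; 14 and 1319 with it); the cause was not tested. Median centring moved the median of all probe sets tested from −0.11 to −0.25, and the median of the 10 genes to 3.57. Same-numbered arrays did not deviate together (r = 0.04 over probe sets), so the numbers were not taken as pairs; with the replicate block 10245 probe sets were called, and the median of the 10 genes stayed 3.72. Of the 24 genes named from the related lists, 17 were called under every setting that tested them. Probe sets under background limit the size of 11 of the 23 differences. The settings for counts within lists were chosen after seeing the data.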

Other observations

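Several of the 10 genes lie in clusters of related genes, by the order of protein-coding genes in RefSeq. Omd and Aspn, 2 proteoglycan genes beside Ogn, were too dim to be tested, but ran in the same order: Omd read 9.88 and 8.22 on cDNA and 7.55 and 5.79 on aRNA (number 0 first), and Aspn 9.66 and 8.03 on cDNA and 7.57 and 6.91 on aRNA. Omd was under background on aRNA array 1, and Aspn there and on cDNA array 1. Prelp, beside Fmod, read 11.18 and 8.67 on cDNA and 8.56 and 8.36 on aRNA, while Optc, the next gene, was under background on all 4 arrays, as was Kera beside Lum. Foxq1, a forkhead gene near Foxc1, was higher on cDNA by 3.69 (limma adjusted p = 0.000581), with aRNA array 0 under background. Of 36 genes within 2 places of the 10, 17 were tested, and 1 was called higher on cDNA (Foxq1) and 4 lower, with a median of −0.27. Over all genes tested 21.9% were called higher and 22.9% lower, and nothing about the neighbours is read from their counts.

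Among 5035 tested probe sets with a range of at least 2 over the arrays, the genes nearest to the centred profile of Fmod were Pear1 (Euclidean distance over the 4 arrays 0.91), Mecom (1.05), Gba2 (1.41), Suz12 (1.61) and Mgp (1.64). Nearest to the median profile of the 10 genes were Tshz3 (0.22), Cd93 (0.25), Fat4 (0.25), Phldb2 (0.27) and Psmd9 (0.29). With 4 arrays such likeness is a description only.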
